A study of Mus musculus with 8 samples.

Results

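DNA replication genes were examined in mouse gastric adenocarcinoma and normal gastric mucosa. The set comprised 106 of the 21626 genes measured. These were the genes whose annotation in the deposited table carries the biological process term DNA replication and not the term mitosis. The 4 genes that carry both terms (Cdc6, E4f1, Papd5 and Papd7) were left out. Where a gene had several probe sets, the brightest on average was used. This choice of probe set did not use the difference between tumour and normal tissue. The set of genes itself was chosen with earlier results of these data known.

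The arrays are Affymetrix expression arrays of total RNA. The 4 adenocarcinomas are spontaneous primary gastric tumours of mice that carry a transgene and were frozen fresh. The 4 control samples are normal gastric mucosa. The labels give neither the transgene and its promoter nor the strain, sex or age, and do not say whether the normal mucosa came from transgenic animals or whether the samples came from separate animals. The p-values below therefore reflect nothing but the scatter of these 8 samples, and some of that scatter may be technical.

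Before a cell divides, its genome is copied once. Origins of replication are first marked by the origin recognition complex (ORC), which loads the MCM helicase with the help of Cdc6 and Cdt1, a step called licensing. Kinases then fire the origins by recruiting Cdc45 and GINS to the helicase, and DNA polymerases held on the template by the clamp PCNA copy both strands. In the normal stomach, dividing cells sit mainly in a narrow zone of each gland, while the acid- and enzyme-secreting cells rarely divide.

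Of the 106 DNA replication genes, 48 (45.3%) rose in adenocarcinoma and 7 (6.60%) fell. Over all genes tested, 18.2% rose and 23.6% fell. A call is an adjusted p under 0.05 in limma, with Benjamini-Hochberg adjustment over all 21626 genes. The median change of the members was 0.425 on the log2 scale (adenocarcinoma minus normal mucosa), beside -0.1 over all genes. A total of 86 members had a change above 0 and 20 a change below 0, beside 8485 and 12687 of all 21626 genes. In 42 members (39.6%) all 4 adenocarcinomas lay above all 4 normal samples, as did 15.8% of all genes. In 4 members (3.77%) they all lay below, against 18.5% of all genes. The median called rise was 1.76-fold in the members and 1.71-fold over all genes. Rises of at least 2-fold were called in 10 members (9.43%) and in 6.63% of all genes.

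The split between rises and falls moved with the scaling of the arrays. After each array was centred on its median, 36 members rose and 12 fell, so that rises made up 75.0% of the calls instead of 87.3%. Over all genes, 14.1% then rose and 42.9% fell. After centring on olfactory and vomeronasal receptor genes, 64 members rose and 1 fell (98.5%), beside 23.9% and 7.3% of all genes. Under these scalings the median gene changed by -0.237 and 0.0769. Relative to that median the members' median was 0.525 as deposited. Centring moves all genes of an array alike and so cannot change this distance. It was 0.427 after cyclic loess and 0.463 without the dimmest 30% of genes. When single arrays were left out it ranged from 0.421 (without adenocarcinoma 2) to 0.591 (without adenocarcinoma 3). Leaving out single arrays gave 31 to 50 rises and 3 to 6 falls among the members. Of all genes, 13.6% to 18.3% rose and 13.8% to 25.2% fell in these leave-outs. The lowest counts came without normal replicate 1 (31 rises and 4 falls) and without normal replicate 3 (32 and 3), and 4 members also fell without normal replicate 4 or adenocarcinoma 1.

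**Figure D1:**
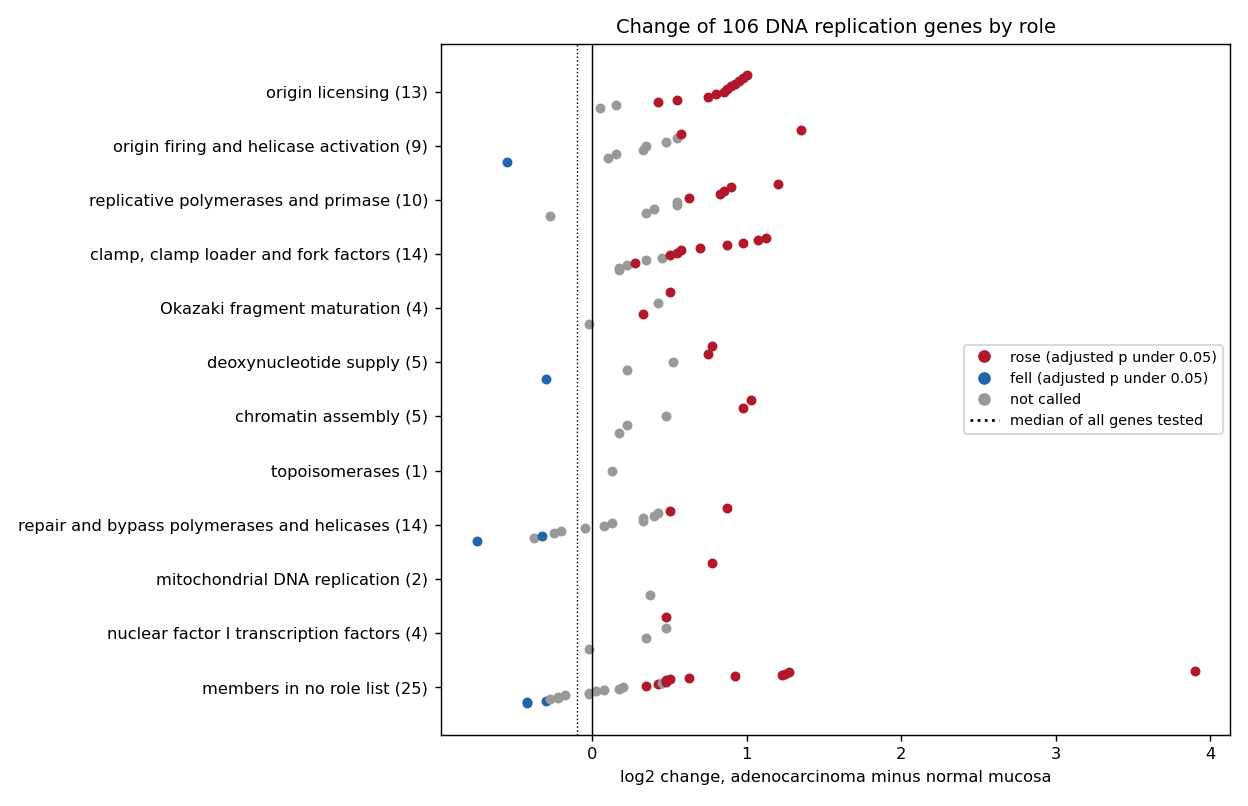
Change of each of the 106 DNA replication genes, as log2 adenocarcinoma minus normal mucosa, with one point per gene in rows by role and the number of genes in brackets. Red points rose, blue points fell and grey points were not called at an adjusted p under 0.05 in limma. The dotted line marks the median of all genes tested, -0.1, and 11 of the 13 licensing genes are red, while the row of repair and bypass polymerases lies on both sides of 0.

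Other features of the arrays differed with the groups. All 11 measured markers of dividing cells rose, and their mean log2 value was 9.98 to 10.7 in adenocarcinomas and 8.85 to 9.14 in normal mucosa. All 8 parietal cell markers and all 6 chief cell markers fell, while all 8 fibroblast and all 8 macrophage markers rose. Of 6 epithelial markers, 3 rose and 1 fell. The part of cell composition in the changes below was not tested. In these bulk samples, more dividing cells and more replication RNA per cell cannot be told apart. Exon control probes exceeded intron control probes, a quality index of the array, by 3.9 to 4.5 in adenocarcinomas and 3.6 to 4.0 in normal mucosa, and its part was not tested. Xist and Y-linked genes separated the groups completely, with Xist lower and the Y-linked genes higher in all adenocarcinomas, so sex cannot be told apart from tissue. This holds for members on every chromosome, and 2 of them lie on the X chromosome. The part of sex was not tested.

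Most licensing genes rose. Of 13 measured members with this role, 11 (84.6%) rose, none fell, and in all 11 the groups did not overlap. The median change of the 13 was 0.85. The count of rises was 6, 8, 6 and 7 without normal replicates 1, 2, 3 and 4, while it was 10 or 11 without any single adenocarcinoma. Rises over all genes also dropped without single normal arrays, from 18.2% to 14.5%, 16.7%, 13.6% and 14.0%. Without single adenocarcinomas they were 15.5% to 18.3%. Under these leave-outs the median change of the 13 was 0.575 to 1.0. The 6 subunits of the MCM helicase, Mcm2 to Mcm7, form the ring that unwinds DNA at the fork, and all 6 rose by 0.75 to 0.95 (1.68-fold to 1.93-fold). Cdt1, the helicase loader, rose by 0.80 ± 0.244 (SE; limma adjusted p = 0.0285).

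The MCM subunits shared a pattern across the tumours. Mcm2 read 10.1, 11.2, 10.2 and 10.5 in adenocarcinomas 1 to 4 and 9.7, 9.7, 9.5 and 9.5 in normal replicates 1 to 4. Mcm5 read 10.2, 11.4, 10.0 and 10.5 in the adenocarcinomas against 9.8, 9.6, 9.7 and 9.6. Mcm7 read 10.4, 11.1, 10.2 and 10.2 against 9.4, 9.7, 9.6 and 9.5. Each had its highest value in adenocarcinoma 2, and the same held for Mcm3, Mcm4 and Mcm6. The largest subunit change was that of Mcm4, by 0.95 ± 0.202 (adjusted p = 0.0065), and the smallest that of Mcm6, by 0.75 ± 0.263 (adjusted p = 0.0467).

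Without adenocarcinoma 2 all 6 subunits were still called, with changes of 0.467 (Mcm6) to 0.725 (Mcm4) and a median of 0.625 in place of 0.89. Mcm4 and Mcm7 were called under all 20 alternative settings. Mcm6 was called under 9 of 20, and leaving out any single normal array ended its call (adjusted p from 0.0742 to 0.105). Mcm3 lost its call without normal replicate 1, 3 or 4 or adenocarcinoma 4, and Mcm5 and Cdt1 lost theirs without any single normal array.

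The origin recognition complex changed unevenly. Orc6 read 9.7, 9.6, 8.9 and 8.8 in adenocarcinomas 1 to 4 and 8.1, 8.4, 8.4 and 8.1 in normal replicates 1 to 4. Orc2 read 9.5, 9.7, 9.4 and 9.5 against 8.4, 8.9, 8.3 and 8.6. All adenocarcinomas lay above all normal samples for both subunits. Orc6 rose by 1.0 ± 0.213 (adjusted p = 0.00655) and Orc2 by 0.975 ± 0.138 (adjusted p = 0.000772). Orc5 (0.55) and Orc4 (0.425) also rose. The calls of Orc2, Orc5 and Orc6 held under all 20 alternative settings. That of Orc4 was lost without normal replicate 1 or 3 and after median centring (adjusted p from 0.0591 to 0.0897), and at an adjusted p under 0.01. Orc3 (0.15, adjusted p = 0.361) and Orc1 (0.05, adjusted p = 0.811), the subunit whose level is known to vary over the human cell cycle, were not called. Whether the subunits' changes differ from each other was not tested.

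**Figure D2:**
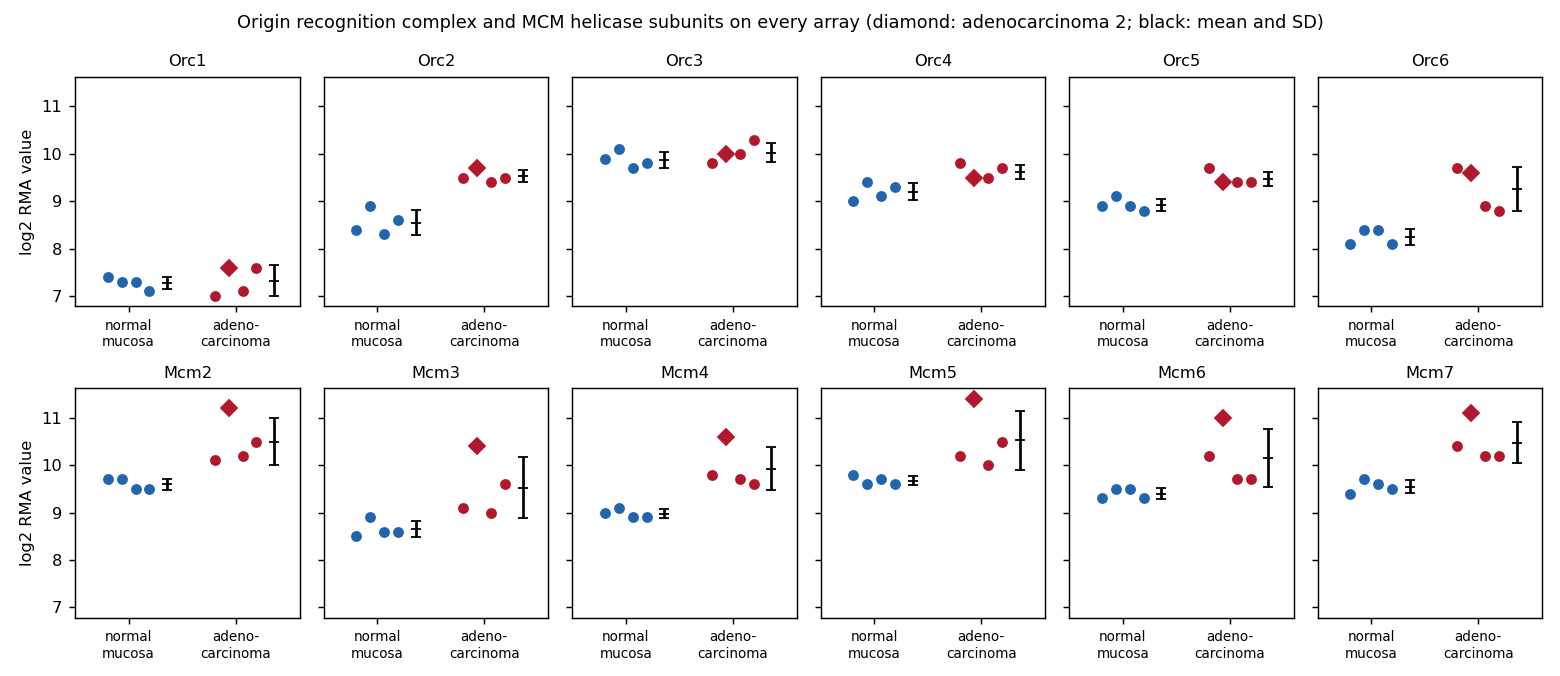
Log2 RMA value of the 6 ORC subunits and the 6 MCM subunits on each of the 8 arrays, with normal mucosa in blue and adenocarcinoma in red. The black bars give the group mean and its SD (n = 4), and the diamond marks adenocarcinoma 2, which is the highest array in all 6 MCM panels and the highest of 4 in the panel of Orc2 but not in those of Orc3 to Orc6.

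Outside the set, the licensing inhibitor geminin (Gmnn), which blocks Cdt1, fell by 0.375 ± 0.111 (adjusted p = 0.0263), from 7.7, 8.1, 8.0 and 8.0 in normal mucosa to 7.4, 7.7, 7.6 and 7.6. The groups shared the value 7.7. The call of Gmnn was lost in 7 of 20 settings, among them cyclic loess (adjusted p = 0.152), receptor centring (0.312) and the leave-outs of normal replicates 2, 3 and 4 and adenocarcinoma 1.

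E2F transcription factors are known to drive many replication genes at the start of S phase, through sites with the core TTNNCGC in which each N is C or G. This core was searched on both strands from 250 bases before to 50 bases after each gene's start in RefSeq (GRCm38.p6). Promoters were available for 5 of the 6 MCM subunits, Mcm2, Mcm3, Mcm5, Mcm6 and Mcm7, and 4 of these held the core. The stretches below are shown because the MCM subunits moved together. Only stretches that lie wholly before the first annotated start are printed. This leaves out a stretch of Mcm3 with 3 cores, the first of them 20 bases after the start, 1 of Mcm6 with 1 core and 2 of Mcm7, with 2 cores and 1 core, which lie after that gene's first start. They are read in the direction of the gene, the cores are in capitals on whichever strand they match, and 15 bases flank them on each side. The Mcm5 stretch lies at chr8:75109330-75109381 on the + strand, those of Mcm6 at chr1:128359790-128359829 and chr1:128359727-128359766 on the - strand, and the printed one of Mcm7 at chr5:138172027-138172063 on the - strand. Their first cores begin 164, 109, 46 and 165 bases before the annotated start.
Mcm5: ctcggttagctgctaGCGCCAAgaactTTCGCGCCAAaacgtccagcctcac
Mcm6, distal: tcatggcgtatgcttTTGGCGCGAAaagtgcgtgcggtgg
Mcm6, proximal: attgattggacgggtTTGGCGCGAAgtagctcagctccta
Mcm7: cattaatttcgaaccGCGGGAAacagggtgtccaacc
The Mcm5 stretch holds 3 cores, each printed Mcm6 stretch holds 2 cores that overlap on opposite strands, and the printed Mcm7 stretch holds 1. A match of letters is a description and does not show that a factor binds there.

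Of 9 members that fire the origins, Dbf4 and Gins1 rose, Gins3 fell, and 6 were not called. The share that rose, 22.2%, was close to the 18.2% of all genes. It was not stable: 6 rose with array weights and after receptor centring, 4 without adenocarcinoma 4, and 1 without normal replicate 1, 3 or 4 or adenocarcinoma 2. Of all genes, 21.0% rose with array weights, 23.9% after receptor centring, 18.1% without adenocarcinoma 4 and 13.6% to 15.5% in the last leave-outs. Dbf4, the activating subunit of the Cdc7 kinase that triggers firing, read 9.8, 10.1, 10.1 and 10.2 in adenocarcinomas 1 to 4 and 8.7, 8.9, 8.4 and 8.8 in normal replicates 1 to 4. The groups did not overlap. Dbf4 rose by 1.35 ± 0.132, or 2.55-fold (adjusted p = 9.92e-05), and was called under all 20 alternative settings. The deposited table places it on chromosome 5, from 8396995 to 8422694, on a build not given in the sources used. Its catalytic partner Cdc7, which is not a member, changed by -0.025 ± 0.106 (adjusted p = 0.86). The difference between the changes of the partners was not tested.

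The GINS complex, which joins Cdc45 and the MCM ring in the active helicase, went both ways. Gins1 read 8.5, 8.9, 8.1 and 8.1 in adenocarcinomas 1 to 4 and 7.7, 8.0, 7.6 and 8.0 in normal replicates 1 to 4, so the groups lay just apart. It rose by 0.575 ± 0.19 (adjusted p = 0.038). Gins3 read 8.2, 8.4, 7.7 and 7.8 against 8.4, 8.9, 8.6 and 8.4, with overlap at 8.4. It fell by 0.55 ± 0.179 (adjusted p = 0.0365). Gins4 (0.55, adjusted p = 0.0654) and Gins2 (0.325, adjusted p = 0.07) were not called. Neither GINS call was robust: that of Gins1 was lost in 7 of 20 settings, among them those without normal replicate 1, 3 or 4 or adenocarcinoma 1 or 2, and that of Gins3 in 10, among them those without any single normal array or adenocarcinoma 3 or 4.

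Cdc45 changed by 0.15 ± 0.148 (adjusted p = 0.425), and Mcm10, which helps activate the helicase, by 0.475 ± 0.181 (adjusted p = 0.0607). Mcm8 and Mcm9, MCM relatives that act in recombination, stood at 0.35 (adjusted p = 0.0651) and 0.10 (adjusted p = 0.406). Among firing genes that are not members, the S phase cyclin Ccna2 rose by 1.18 ± 0.138 (adjusted p = 0.000279). Its values were 11.0, 11.5, 10.9 and 11.2 in adenocarcinomas 1 to 4 and 10.0, 10.0, 9.8 and 10.1 in normal mucosa. The cyclin Ccne2, which acts with Cdk2 at the start of S phase, fell from 8.1, 8.2, 7.9 and 7.9 to 7.8, 7.7, 7.4 and 7.6 (-0.40 ± 0.116, adjusted p = 0.0239). Both separated the groups, in opposite directions. The call of Ccne2 was lost after cyclic loess (adjusted p = 0.15) and receptor centring (0.213) and without normal replicate 1 (0.0643) or 2 (0.0501).

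Among the replicative polymerases, all subunits of polymerase delta and the catalytic subunit of polymerase epsilon rose, while no subunit of polymerase alpha and primase was called. Of 10 members, 5 rose and none fell. Pole, the catalytic subunit of polymerase epsilon, which copies the leading strand, read 9.3, 10.3, 8.9 and 9.1 in adenocarcinomas 1 to 4 and 7.9, 8.3, 8.4 and 8.2 in normal replicates 1 to 4. The groups did not overlap, and adenocarcinoma 2 was again the highest. The change was 1.20 ± 0.276, or 2.30-fold (adjusted p = 0.0094). The other epsilon subunit in the set, Pole2, stood at 0.55 ± 0.275 (adjusted p = 0.131). Of the accessory subunits that are not members, Pole3 stood at 0.10 and Pole4 at 0.275, neither called.

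All 4 subunits of polymerase delta, which copies the lagging strand, rose. Pold4, its smallest subunit, read 10.3, 10.1, 10.2 and 10.3 in adenocarcinomas 1 to 4 and 9.5, 9.3, 9.2 and 9.3 in normal replicates 1 to 4. Unlike the MCM subunits, Pold4 was lowest in adenocarcinoma 2, and its values within each group lay within 0.3 of each other. It rose by 0.90 ± 0.0948 (adjusted p = 0.00015). Pold3 (0.85 ± 0.1), Pold2 (0.825 ± 0.197) and the catalytic Pold1 (0.625 ± 0.0896) rose as well. The calls of Pold1, Pold3 and Pold4 held under all 20 alternative settings, and that of Pold2 under 19.

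Polymerase alpha and primase start each new strand with a short RNA-DNA primer. None of the 4 subunits was called. Pola1 stood at 0.55 ± 0.310 (adjusted p = 0.173), Pola2 at 0.35 ± 0.227 (adjusted p = 0.232), Prim1 at 0.40 ± 0.145 (adjusted p = 0.0522) and Prim2 at -0.275 ± 0.205 (adjusted p = 0.293). Pola1 read 8.5, 9.6, 8.0 and 9.1 in adenocarcinomas 1 to 4 and 7.9 to 8.5 in normal mucosa. Prim2 read 9.2, 10.0, 8.9 and 9.3 against 9.5 to 9.7, so that only adenocarcinoma 2 lay above the normal samples. Without that tumour Prim2 fell by 0.492 (adjusted p = 0.0175). Prim1 was called as a rise in 4 of 20 settings.

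**Figure D3:**
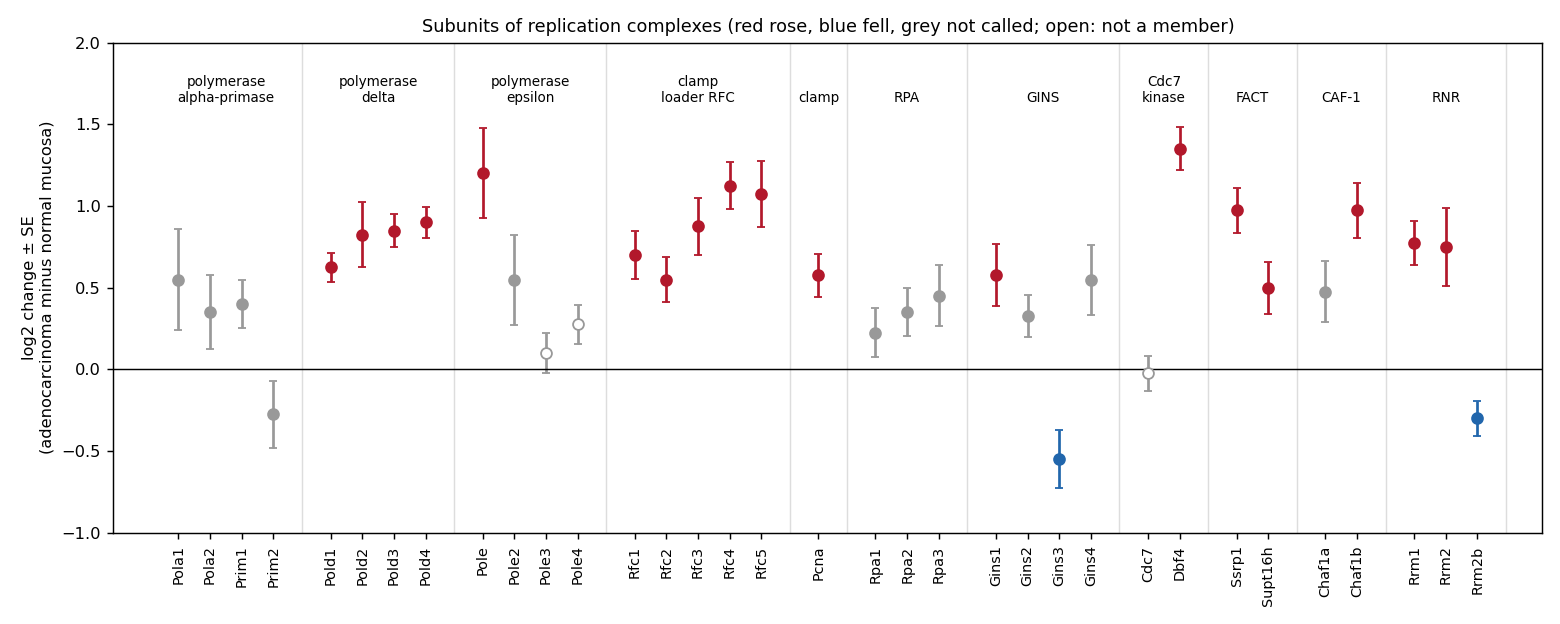
Log2 change (adenocarcinoma minus normal mucosa) with its limma SE for each subunit of 11 replication complexes or enzymes, where RPA is the single-strand binding complex, FACT a histone chaperone, CAF-1 the chromatin assembly factor and RNR ribonucleotide reductase. Red subunits rose, blue subunits fell, grey subunits were not called, and open circles are genes outside the set. All 4 subunits of polymerase delta and all 5 of the clamp loader are red, while none of the 4 subunits of polymerase alpha and primase and none of the 3 of RPA is.

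The clamp loader rose as a whole. Replication factor C, of subunits Rfc1 to Rfc5, opens the ring-shaped clamp PCNA and places it on the primed template. All 5 subunits rose, by 0.55 (Rfc2) to 1.13 (Rfc4). Rfc4 read 9.8, 10.5, 10.2 and 10.2 in adenocarcinomas 1 to 4 and 9.0, 9.2, 8.9 and 9.1 in normal replicates 1 to 4. Rfc5 read 10.9, 11.9, 11.0 and 11.3 against 10.1, 10.4, 10.1 and 10.2. Both were highest in adenocarcinoma 2 and lowest in adenocarcinoma 1 among the tumours, without overlap with normal mucosa. Rfc4 rose 2.18-fold (adjusted p = 0.000479) and Rfc5 by 1.08 ± 0.204, 2.11-fold (adjusted p = 0.00374). The calls of Rfc1, Rfc3, Rfc4 and Rfc5 held under all 20 alternative settings and that of Rfc2 was lost at an adjusted p under 0.01.

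Of the 14 members that act as clamp, clamp loader or fork factors, 9 rose and none fell. Pcna, the clamp itself, rose by 0.575 ± 0.13 (adjusted p = 0.00847). Both of its probe sets are marked in the deposited table as prone to cross-hybridise, so copies of the gene may share the signal, and they gave 0.55 and 0.575. Ssrp1 and Supt16h, the subunits of the histone chaperone FACT, rose by 0.975 ± 0.138 and 0.50 ± 0.159. The groups overlapped for Supt16h, whose call was lost without normal replicate 1, 3 or 4 or adenocarcinoma 1, 2 or 4 (adjusted p from 0.0568 to 0.0859). Chtf18, part of an alternative clamp loader, rose by 0.275 ± 0.0983 with an adjusted p of 0.0492 and lost the call in 13 of 20 settings. Its partner subunits Chtf8 and Dscc1 both stood at 0.175 and were not called, and Dscc1 lay at or below background on 1 array.

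RPA coats the single-stranded DNA behind the helicase. Its subunits Rpa3 (0.45, adjusted p = 0.0796), Rpa2 (0.35, adjusted p = 0.083) and Rpa1 (0.225, adjusted p = 0.241) had changes above 0 and were not called. Their highest normal values reached into the tumour range. Rpa1, for example, read 9.2, 9.9, 9.5 and 9.7 in adenocarcinomas 1 to 4 and 9.2, 9.5, 9.3 and 9.4 in normal mucosa.

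Of the 4 members that mature Okazaki fragments, the short pieces of the lagging strand, Fen1 and Dna2 rose and Lig1 and Lig3 were not called. The flap nuclease Fen1 read 8.5, 9.0, 8.5 and 9.0 in adenocarcinomas 1 to 4 and 8.2, 8.4, 8.2 and 8.2 in normal replicates 1 to 4. The nuclease and helicase Dna2 read 8.3, 8.5, 8.3 and 8.3 against 7.9, 8.0, 8.1 and 8.1. The groups lay apart by 0.1 and 0.2. Fen1 rose by 0.50 ± 0.142 (adjusted p = 0.0225) and Dna2 by 0.325 ± 0.0896 (adjusted p = 0.0198). A dimmer probe set of Fen1 gave -0.325, and averaging both ended the call, so the array does not settle the direction for this gene. The call of Fen1 was also lost without adenocarcinoma 2 or normal replicate 1, 3 or 4 and after median centring (adjusted p from 0.057 to 0.0613). That of Dna2 was lost without normal replicate 1 (adjusted p = 0.0588) and after median centring (0.0919), so that none of the 4 members was then called as a rise. Both were lost at an adjusted p under 0.01. The ligase Lig1 separated the groups, with 9.4 to 10.2 against 9.1 to 9.3, and had an adjusted p of 0.0774 at a change of 0.425. Lig3, which acts mainly in repair and in mitochondria, stood at -0.025.

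Deoxynucleotide supply split between the subunits of ribonucleotide reductase, the enzyme that makes the building blocks of DNA. The large subunit Rrm1 read 11.2, 11.7, 11.2 and 11.4 in adenocarcinomas 1 to 4 and 10.4, 10.8, 10.6 and 10.6 in normal replicates 1 to 4, without overlap. It rose by 0.775 ± 0.136 (adjusted p = 0.00248) and was called under all 20 alternative settings. The small subunit of S phase, Rrm2, rose by 0.75 ± 0.239 (adjusted p = 0.0342). It read 9.3, 10.4, 10.0 and 10.4 against 9.0, 9.5, 9.2 and 9.4, and adenocarcinoma 1 lay within the normal range. Rrm2b, the alternative small subunit known for supplying DNA repair and mitochondria in cells that do not divide, fell by 0.30 ± 0.106 (adjusted p = 0.0475), from 8.7, 8.9, 8.6 and 8.5 to 8.3, 8.3, 8.4 and 8.5.

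The groups of Rrm2b met at 8.5, and its call was lost in 13 of 20 settings, among them the leave-outs of normal replicates 1, 2 and 3 and of adenocarcinomas 1, 2 and 3. That of Rrm2 was lost in 9, among them the leave-outs of normal replicates 1, 3 and 4 and of adenocarcinomas 2, 3 and 4 (adjusted p from 0.0541 to 0.0911). The difference between both small subunits was not tested. The thymidine kinases Tk2 (0.525, adjusted p = 0.0632) and Tk1 (0.225, adjusted p = 0.162) were not called. The probe set of Tk1 lies on chromosome 8 in the deposited table and the gene on chromosome 11 in RefSeq, so its signal may be that of another copy. A dimmer probe set of Tk1 on chromosome 11, marked unique, gave a similar change of 0.275.

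Among 5 chromatin assembly genes, which package new DNA into nucleosomes, 2 rose, and 4 did with array weights or after receptor centring. In these 2 settings 21.0% and 23.9% of all genes rose. The histone-binding protein gene Rbbp7 read 11.8, 12.1, 11.5 and 11.9 in adenocarcinomas 1 to 4 and 10.9, 10.9, 10.6 and 10.8 in normal replicates 1 to 4. Chaf1b, the middle subunit of chromatin assembly factor CAF-1, read 9.6, 10.3, 9.6 and 9.7 against 8.6, 9.0, 8.9 and 8.8. Neither gene's groups overlapped. Rbbp7 rose by 1.03 ± 0.136 (adjusted p = 0.000548) and Chaf1b by 0.975 ± 0.168 (adjusted p = 0.00228). Rbbp7 lies on the X chromosome, and for it, as for the other members, sex cannot be told apart from tissue. Chaf1a, the large CAF-1 subunit, stood at 0.475 (adjusted p = 0.0673), Rbbp4 at 0.225 (adjusted p = 0.0557) and the histone chaperone Nasp at 0.175 (adjusted p = 0.394).

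The role of repair synthesis and lesion bypass has 14 members, among them the mitochondrial polymerase subunits Polg and Polg2. Of the 14, 2 (14.3%) rose and 2 (14.3%) fell, near the shares of all genes, 18.2% and 23.6%. The median change of the 14 was 0.10. The tumour suppressor Brca1 rose by 0.875 ± 0.280 (adjusted p = 0.0344). It read 9.2, 9.4, 8.3 and 8.1 in adenocarcinomas 1 to 4 and 7.7 to 8.1 in normal mucosa, so adenocarcinomas 1 and 2 stood well above the normal range and adenocarcinoma 4 met it. The bypass polymerase Poli rose by 0.50 ± 0.173 (adjusted p = 0.0446). Both calls were lost without adenocarcinoma 2 (adjusted p = 0.0762 for Brca1 and 0.103 for Poli), without adenocarcinoma 1 (0.0727 and 0.0944) and without any single normal array.

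Polk, a polymerase that bypasses bulky lesions, had the largest fall of all 106 members. It read 9.2, 8.8, 8.8 and 8.3 in adenocarcinomas 1 to 4 and 9.7, 9.5, 9.3 and 9.6 in normal replicates 1 to 4. All adenocarcinomas lay below all normal samples. Polk fell by 0.75 ± 0.179, and was 1.68-fold higher in normal mucosa (adjusted p = 0.011). The deposited table places it on chromosome 13, between 97250642 and 97312501. The call was lost at an adjusted p under 0.01 and held in the other 19 settings. Polg2, the accessory subunit of the mitochondrial polymerase, fell by 0.325 ± 0.106 (adjusted p = 0.0369), with overlapping groups, and lost the call in 10 settings, among them the leave-outs of normal replicates 2, 3 and 4 and adenocarcinomas 1, 2 and 4. Its catalytic partner Polg stood at -0.375 (adjusted p = 0.0722).

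The bypass polymerases Rev1 (0.325, adjusted p = 0.0667) and Polh (0.325, adjusted p = 0.126), the helicases Wrn (0.425, adjusted p = 0.139) and Blm (0.40, adjusted p = 0.267) and the catalytic subunit of polymerase zeta, Rev3l (-0.25, adjusted p = 0.0804), were not called. The topoisomerase Top1, the only member of its kind, stood at 0.125 (adjusted p = 0.50). Outside the set, Top2a, which untangles replicated chromosomes, rose by 1.30 ± 0.166 (adjusted p = 0.000448).

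The mitochondrial polymerase genes Polg and Polg2, with changes of -0.375 and -0.325, were counted above with repair and bypass. Of the 2 other members counted as mitochondrial, the single-strand binding protein gene Ssbp1 rose by 0.775 ± 0.121 (adjusted p = 0.00134). It read 9.6, 9.5, 9.2 and 9.4 in adenocarcinomas 1 to 4 and 8.6, 8.9, 8.6 and 8.5 in normal replicates 1 to 4. That probe set lies on chromosome 11 and the gene on chromosome 6 in RefSeq. The probe set on chromosome 6, marked unique, gave 0.225, and the call was lost on unique probe sets. The rise of Ssbp1 is therefore uncertain. The mitochondrial helicase Peo1, now named Twnk, stood at 0.375 (adjusted p = 0.0672).

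The annotation also holds the 4 nuclear factor I genes, transcription factors first described as host factors for adenovirus replication. Nfib read 11.6, 11.3, 11.7 and 11.5 in adenocarcinomas 1 to 4 and 11.0, 11.2, 11.0 and 11.0 in normal replicates 1 to 4, and rose by 0.475 ± 0.106 (adjusted p = 0.00824). Nfic read 9.3, 10.1, 10.7 and 10.4 against 9.6, 9.6, 9.7 and 9.7 (0.475, adjusted p = 0.155). Nfia stood at 0.35 (adjusted p = 0.0667) and Nfix at -0.025 (adjusted p = 0.903). All 4 had their highest tumour value in adenocarcinoma 3, whose smooth muscle, fibroblast and endothelial markers were also the highest of the tumours, at mean log2 values of 12.2, 12.2 and 10.6. The part of those cells was not tested.

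Of the 25 members outside the role lists, 11 rose and 3 fell, and 7 rose and 2 fell without normal replicate 1 or 3. In those leave-outs 14.5% and 13.6% of all genes rose, and 13.8% and 13.9% fell. Ctgf, now named Ccn2, encodes a matrix-associated growth factor and carries the replication term in the deposited annotation. It read 12.7, 12.8, 13.3 and 11.7 in adenocarcinomas 1 to 4 and 8.9, 8.6, 8.8 and 8.6 in normal replicates 1 to 4, and rose 14.9-fold (adjusted p = 1.97e-05). It is the member with the largest change, and its tumour order, with adenocarcinoma 3 highest, is not that of the MCM subunits. Without it the median change of the other 105 members was also 0.425. The other rises of 2-fold or more in this group were Rbms1, which encodes an RNA- and DNA-binding protein (1.28 ± 0.0983), the adrenergic receptor Adra2a (1.25 ± 0.429) and Lin9, a subunit of the complex that switches on late cell cycle genes (1.23 ± 0.181).

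Adra2a read 7.9 in adenocarcinoma 1, inside the normal range of 7.8 to 8.4, and 9.5, 9.6 and 10.3 in the other tumours. Its call (adjusted p = 0.0436) was lost in 12 settings, among them the leave-outs of every array but adenocarcinoma 1. Dtl, part of the ligase that destroys Cdt1 during S phase, rose by 0.925 ± 0.235 (adjusted p = 0.0144). The falls were Rmi1 and A630055G03Rik, now named Rmi2, subunits of the complex that acts with the helicase Blm, and Dntt, the template-independent polymerase of lymphocyte precursors. Rmi1 fell by 0.425 ± 0.109 (adjusted p = 0.0147) and A630055G03Rik by 0.30 ± 0.0888 (adjusted p = 0.026). The call of Rmi1 was lost on the mean of its probe sets (adjusted p = 0.0561), after receptor centring (0.124) and at an adjusted p under 0.01. That of A630055G03Rik was lost in 8 of 19 settings, among them cyclic loess (adjusted p = 0.371) and the leave-outs of normal replicates 1, 3 and 4 and adenocarcinomas 1 and 2. Dntt lay at or below background on 5 of 8 arrays, so its fall of 0.425 is limited by background. Stra8, a gene of germ cells, lay at or below background on all 8.

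A core list of 85 genes of licensing, firing, polymerases, clamp and fork, Okazaki maturation and deoxynucleotide supply was read beside the annotation, and 83 of its genes were measured. Of these, 39 rose and 4 fell, with a median change of 0.475. The 55 core genes that are members gave 31 of these rises and 2 of these falls. The 4 that fell were Gins3, Rrm2b, Ccne2 and Gmnn. Among the 28 core genes outside the set, 8 (28.6%) rose and 2 (7.14%) fell, beside 18.2% and 23.6% of all genes. The largest rises there were those of Ccna2 and the deaminase Dctd (1.10 ± 0.326, adjusted p = 0.0263), which feeds thymidylate synthesis. The call of Dctd was lost without normal replicate 1, 3 or 4. Without adenocarcinoma 2 the core counts were 33 and 4. They were 24 and 1 without normal replicate 1, and 26 and 2 without normal replicate 4. After cyclic loess 38 rose and 0 fell, and after receptor centring 54 rose and 0 fell.

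Adenocarcinoma 2 stood apart among the tumours in these genes. The median deviation of the 106 members from the normal mean was 0.625 in adenocarcinoma 2 and 0.275, 0.275 and 0.338 in adenocarcinomas 1, 3 and 4. Of the members, 53 (50%) had their single highest tumour value there, against 14.5% of all genes tested, 23.2% of the genes that rose and 33.7% of the 187 genes annotated to mitosis. In the 13 licensing genes the median deviation was 1.55 in adenocarcinoma 2 and 0.475 to 0.625 in the others, and in the 6 MCM subunits among them it was 1.61 and 0.475 to 0.738. In the repair and bypass polymerases it was 0.188 against -0.0125 to 0.075.

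The dividing-cell markers had means of 9.98, 10.65, 10.21 and 10.69 in adenocarcinomas 1 to 4, so that adenocarcinomas 2 and 4 were nearly level. The median deviation of the mitosis genes was highest in adenocarcinoma 2, at 0.5 beside 0.25 to 0.425 in the other tumours. Adenocarcinoma 2 also had the largest difference between exon and intron control probes, 4.5, beside 3.9 to 4.4 in the other tumours, and the highest mean of B and plasma cell markers, 9.5 beside 7.24 to 8.22. Its means of pit cell markers (12.7 beside 10.0 to 11.3), chief cell markers (8.58 beside 7.62 to 8.4) and epithelial markers (12.5 beside 12.2 to 12.4) were the highest of the tumours as well, as were those of parietal cell markers (7.5 beside 7.3 to 7.49) and T cell markers (7.89 beside 7.20 to 7.86). Its values of the Y-linked genes were the lowest of the tumours. They were 9.2 beside 9.9 to 11 for Eif2s3y, 9.5 beside 10.1 to 11 for Ddx3y, 9.6 beside 9.7 to 11.2 for Uty and 8.5 beside 8.6 to 9.9 for Kdm5d. The part of array quality, cell composition or the Y chromosome in this pattern was not tested. Without adenocarcinoma 2, 38 members rose and 6 fell, beside 15.5% and 15.6% of all genes, and the members' median change was 0.329. Licensing then had 11 rises, the polymerases 5, and the clamp and fork factors 7 instead of 9, while repair and bypass genes had 0 rises and 2 falls. Without normal replicate 1 these roles had 6, 5, 7 and 0 rises, and without normal replicate 3 the same counts. In these leave-outs 14.5% and 13.6% of all genes rose.

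**Figure D4:**
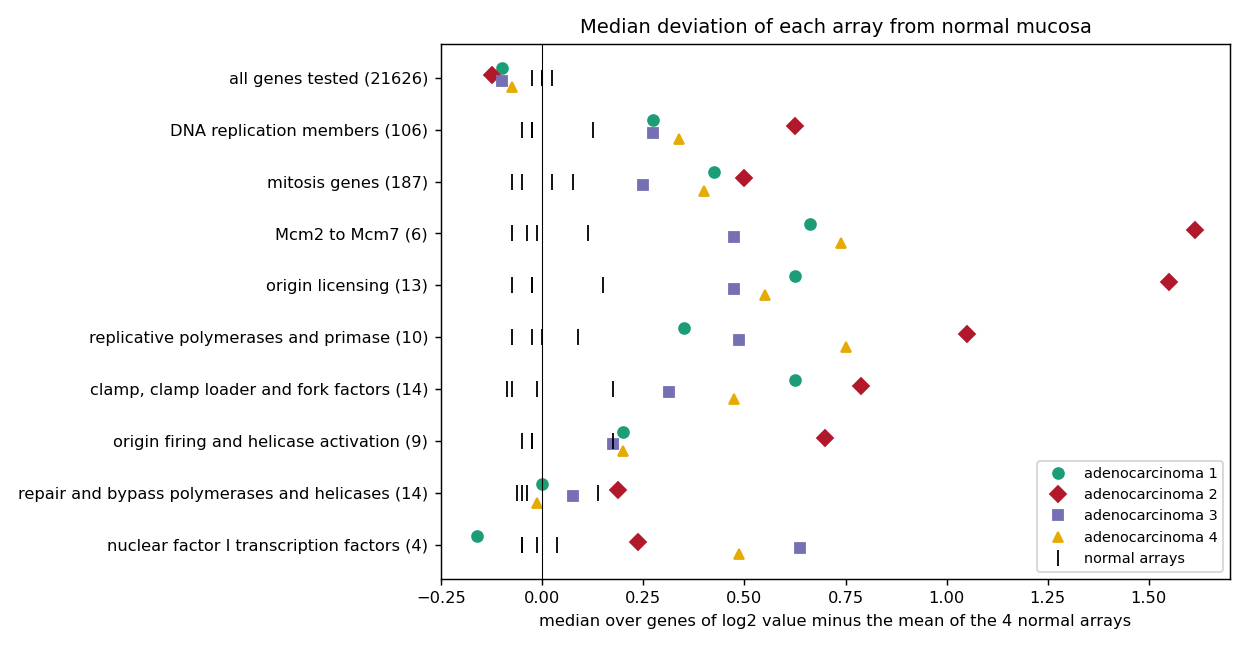
Median over genes of the log2 value minus the mean of the 4 normal arrays, for each adenocarcinoma (coloured symbols) and each normal array (black ticks), in rows by gene group with the number of genes in brackets. Adenocarcinoma 2 lies at 1.61 for Mcm2 to Mcm7 and 0.625 for all 106 DNA replication genes, and adenocarcinoma 3 is the highest for the nuclear factor I genes.

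Spread between tumours exceeded that between normal samples for 90 of the 106 members, and for 14899 of all 21626 genes. The median SD over 4 arrays was 0.27 in adenocarcinoma and 0.129 in normal mucosa, beside 0.189 and 0.129 over all genes. For Mcm2 to Mcm7 it was 0.555 and 0.115.

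The mitosis genes, which share these arrays, gave 92 rises and 13 falls among 187, with a median change of 0.375. Of them 41 (21.9%) rose at least 2-fold, as did 10 (9.43%) of the DNA replication genes and 6.63% of all genes tested. The median called rise was 1.85-fold for mitosis genes, 1.76-fold for DNA replication genes and 1.71-fold over all genes. The difference between both groups of genes was not tested.

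**Figure D5:**
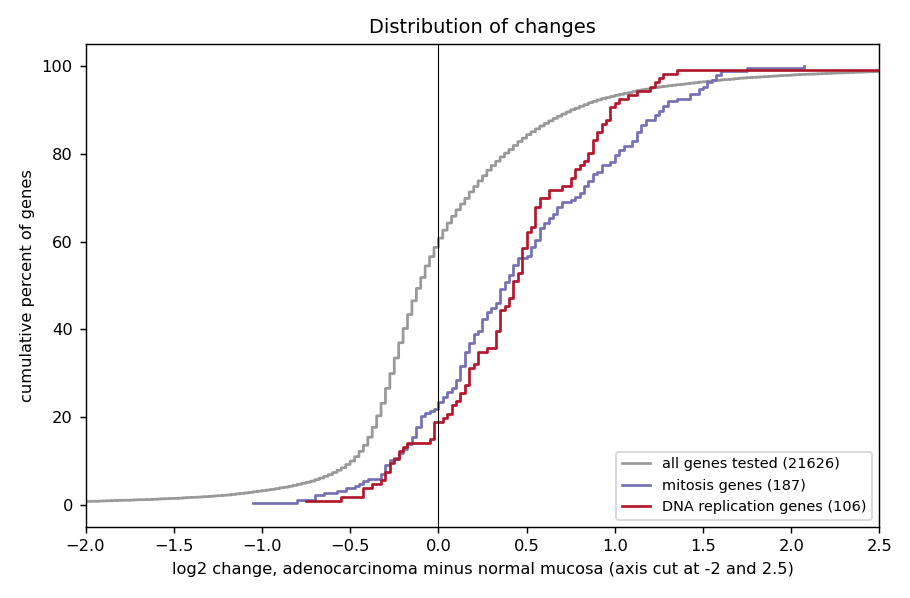
Cumulative percent of genes by log2 change (adenocarcinoma minus normal mucosa) for all 21626 genes tested (grey), the 187 mitosis genes (blue) and the 106 DNA replication genes (red), with the axis limited to -2 to 2.5. The replication curve lies to the right of that of all genes from its lower end up to changes near 1, and the mitosis curve reaches further right above 1.

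A RefSeq promoter window was found for 85 of the 106 members. The E2F core was present in 38 of them (44.7%), in 14.6% of the 14349 tested genes with a window and in 10.9% of all 27025 genes with a window. It was present in 54.1% of the 37 members that rose, 37.2% of the 43 not called and 40% of the 5 that fell. Over all tested genes with a window, it was present in 19.9% of those that rose, 14.1% of those not called and 11.5% of those that fell. By role it was found in 8 of 12 licensing genes and 5 of 8 polymerase genes, and in none of the 3 nuclear factor I genes. CCAAT, searched on both strands, was present in 57.6% of members, 42.2% of tested genes and 41.1% of all genes with a window. For TTTGAA the shares were 17.6%, 17.4% and 20.2%. In 4 members an E2F core shared letters with a CCAAT match. These shares are descriptions without a test, and a gene counted if any of its windows held the motif.

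The promoters of the 4 called members of largest change that hold the core give the cores their context, with the cores in capitals. They are from RefSeq, GRCm38.p6, each read in the direction of its gene over 300 bases, of which the last 50 follow the annotated start. They lie at chr2:60881389-60881688 (Rbms1, - strand), chr16:23127681-23127980 (Rfc4, - strand), chr16:93883651-93883950 (Chaf1b, + strand) and chr2:85037201-85037500 (Ssrp1, + strand). Rbms1 and Ssrp1 have 2 windows each, of which the first that holds a core is shown. In the windows shown the core of Rbms1 begins 170 bases before the start and that of Ssrp1 231 bases before it. The core of Rfc4 lies after the start, and Chaf1b holds a core 227 bases before the start and a second after it.
Rbms1: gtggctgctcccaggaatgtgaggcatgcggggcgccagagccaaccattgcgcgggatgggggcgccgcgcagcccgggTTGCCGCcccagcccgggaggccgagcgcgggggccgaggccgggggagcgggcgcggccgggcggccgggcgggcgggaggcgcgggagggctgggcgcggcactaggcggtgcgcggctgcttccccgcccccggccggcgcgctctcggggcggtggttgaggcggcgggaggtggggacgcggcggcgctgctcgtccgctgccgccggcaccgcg
Rfc4: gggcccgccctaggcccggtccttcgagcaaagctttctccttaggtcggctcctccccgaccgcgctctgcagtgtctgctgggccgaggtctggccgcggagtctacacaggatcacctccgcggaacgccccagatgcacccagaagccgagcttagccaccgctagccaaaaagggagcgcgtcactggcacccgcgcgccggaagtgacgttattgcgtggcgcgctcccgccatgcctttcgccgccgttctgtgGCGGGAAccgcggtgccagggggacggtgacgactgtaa
Chaf1b: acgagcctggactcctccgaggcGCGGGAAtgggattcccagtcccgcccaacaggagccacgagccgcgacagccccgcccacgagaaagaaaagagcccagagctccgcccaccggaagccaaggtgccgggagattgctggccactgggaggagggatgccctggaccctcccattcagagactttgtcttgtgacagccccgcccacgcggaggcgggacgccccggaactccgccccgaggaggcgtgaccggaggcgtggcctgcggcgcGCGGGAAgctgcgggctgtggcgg
Ssrp1: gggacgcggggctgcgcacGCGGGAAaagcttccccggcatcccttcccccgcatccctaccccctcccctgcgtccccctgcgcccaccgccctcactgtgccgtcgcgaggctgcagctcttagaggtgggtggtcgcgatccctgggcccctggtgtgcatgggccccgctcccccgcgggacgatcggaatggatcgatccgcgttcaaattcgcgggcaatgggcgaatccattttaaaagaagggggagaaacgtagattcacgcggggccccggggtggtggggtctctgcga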

How the data were processed

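Per the labels, total RNA from 8 samples was labelled with biotin and measured on Affymetrix arrays. The deposited table holds log2 expression values that the authors computed with RMA, per the submitters' processing notes, and rounded to 1 decimal in the deposited table (284448 of 284448 values, tolerance 1e-06). RMA gives all arrays one distribution, so it removes differences in total RNA between samples. The members and the role and marker lists were chosen with earlier results of these data known. Each of the 21626 genes with 1 symbol was represented by its probe set of highest mean. For 13 members this was a choice among several. All 106 members matched RefSeq, 7 of them under a newer name.

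Adenocarcinoma (n = 4) was compared with normal mucosa (n = 4) by limma 3.58.1 in R 4.3.3 (two-sided, by lmFit and eBayes), with Benjamini-Hochberg adjustment over all genes and calls at an adjusted p under 0.05. Errors of changes are SEs from the model, and the small number of arrays limits the precision. Alternatives were median centring, cyclic loess, 32 intensity units added before log2, a filter on the dimmest 30% of genes, averaging over probe sets, array weights (statmod 1.5.0), eBayes with its trend and robust options, a replicate block, leave-outs of single arrays, and a stricter threshold of 0.01. Unique probe sets, seeded noise of plus or minus 0.05 and centring on 1341 olfactory and vomeronasal receptor genes were added after seeing the data, giving 20 settings. The code was tested on simulated data. Every member of a role list may be named. Values on every array are given for the 2 called members of largest change with groups that do not overlap in each role list, the largest fall and the largest called change outside the lists. Values of other members on every array, among them MCM subunits, were chosen after their values were seen. Of genes outside the set, those called against the main direction and those of largest change were named by the same rule, and Cdc7, Pole3 and Pole4 were chosen later. The motif search used both strands. Matplotlib 3.10.9 and pandas 2.3.3 in Python 3.11.15 drew the figures. No batch was tested, as slide and scan dates were not used.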

Additional observations from a re-analysis of the deposited data

Results flagged for a closer look

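Among 110 groups of 4 arrays (each called member in each tissue), 11 held a highest or lowest array whose distance from the nearest other array took up more of the group's range than Dixon's critical value for 4 samples allows. Chance flags about 1 in 20 groups, and with values rounded to 1 decimal any group of 3 equal values and 1 other is flagged. Of the 11, 5 rest on a range of 0.1 and 5 on a range of 0.2 or 0.3.

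In adenocarcinoma, Chaf1b stood at 10.3 in replicate 2 with the others at 9.6 to 9.7, Dna2 at 8.5 in replicate 2 with the others at 8.3, and Orc5 at 9.7 in replicate 1 with the others at 9.4. In normal mucosa, replicate 2 was the highest for Rfc3 (8.9), Fen1 (8.4), Nfib (11.2), Repin1 (9.5) and Poli (8.6). Replicate 3 was the highest for A630055G03Rik (7.3) and Dntt (6.5), and replicate 4 the lowest for Dnajc2 (8.7).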

How the results depend on the processing

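Of the 48 members that rose, 25 were called as rises under every setting run, and none of the 7 falls was. Members that rose numbered 26 at an adjusted p under 0.01 and 31 to 50 when 1 array was left out. Members that fell numbered 12 after median centring, 4 after cyclic loess, 4 without the dimmest 30% of genes, 1 after receptor centring, 1 at an adjusted p under 0.01 and 3 to 6 when 1 array was left out. Core replication genes that rose numbered 21 at an adjusted p under 0.01 and 24 to 47 when 1 array was left out. Those that fell numbered 0 after cyclic loess, 0 after receptor centring and 0 at an adjusted p under 0.01, and 1 to 4 when 1 array was left out. The members' median of 0.425 became 0.602 after receptor centring, which moves all genes. The cause of the other shifts was not tested. The labels do not say whether the replicate numbers pair the samples. Deviations from the group means correlated at -0.175, 0.0949, 0.158 and 0.0376 in same-numbered samples, and 2 of 4 correlated best with their own number. With so few arrays these correlations cannot decide on a pairing. A tumour and a normal sample of the same animal would share its sex. Xist was 6.2 to 6.6 in adenocarcinomas and 11.6 to 12.7 in normal mucosa, and the Y-linked Eif2s3y 9.2 to 11 against 5.1 to 5.3. No adenocarcinoma therefore shares an animal with a normal sample, and a replicate block stands for no shared animal. With this block 45 members rose and 7 fell, beside 16.5% and 20.9% of all genes. Licensing genes then had 7 rises instead of 11 and firing genes 4 instead of 2, and Orc4 had an adjusted p of 0.0526.

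These reversals are of small changes that were not called. After median centring they were Orc1 (-0.0875), Mcm9 (-0.0375), Pole3 (-0.0375) and Top1 (-0.0125). After receptor centring they were Cdc7 (0.152), Lig3 (0.152), Nfix (0.152) and Cdk2 (0.0269). Cdc7 was at 0.15 after cyclic loess, Nasp at -0.075 with the mean of its probe sets, and Nfix at 0.0148 with array weights and 0.000976 with noise added. When 1 array was left out, Orc1 ranged from -0.0417 to 0.158, Lig3 from -0.0667 to 0.0417, Cdc7 from -0.0833 to 0.025 and Nfix from -0.15 to 0.0833.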
